A study of Mus musculus with 88 samples.

Results

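Genes named for the pre-mRNA splicing machinery are described here, 48 of the 55364 in each table: all genes with a symbol beginning Snrp, Sf3a or Sf3b, Srsf, Prpf or U2af followed by a number where the name has one, without Snrpn and without named pseudogenes of the -ps kind. They were read in 25 of the 88 samples of the series, 19 libraries of mouse embryonic stem cells and 6 of late 2-cell embryos. The rule uses symbols alone, but it was chosen with earlier results of these data known. The other 63 samples were not analysed here. All 48 had an entry in RefSeq on GRCm38.p6, and 47 of these were protein coding. The exception was Snrpert, a pseudogene of 431 bases on chromosome 2 (131321940 to 131322370) named after Snrpe, so its level and that of Snrpe are uncertain. Another RefSeq gene overlapped 16 of the 48, and the strand setting of the authors' counting is not given in the sources used here.

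The stem cells were male, from a hybrid of C57BL/6 and 129, wild type in genotype, kept with LIF and the inhibitors PD0325901 and CHIR99021, and lipofected with plasmids. ES_Empty is the control, and ES_Dux, ES_Obox3, ES_Obox5 and ES_Obox6 are named for the expressed homeobox gene. These 5 groups had 2 libraries each, and 9 single libraries carried Obox1, Obox2, Obox4ps27, Obox4ps35, Obox7, Obox8, Crxos1, Crxos2 or Crxos3. How long after transfection the cells were taken, and whether transfected cells were selected, is not given in the sources used here. The embryos were wild type: ICSI_L2C (BDF1 x BDF1) came from sperm injected into the egg, and SCNT_EGFP_L2C and SCNT_Obox3_L2C (BDF1) were clones made by placing a cumulus cell nucleus in an enucleated oocyte, then injected with 10 ng/µl of EGFP or Obox3 mRNA. There were 2 libraries of each embryo group. Whether the libraries of a group came from separate cultures or collections is not stated, so a p-value here reflects the spread between those libraries alone, and that spread may be technical.

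The spliceosome assembles on each intron from small nuclear ribonucleoproteins (snRNPs). Each is a small RNA joined by its own proteins, and in most of them the RNA is wrapped in a ring of Sm proteins. U1 snRNP recognises the start of the intron, U2AF and then U2 snRNP its end and branch point, and the PRP factors of the U4/U6.U5 particle and its partners build the active site. SR proteins bind exons and help to choose which sites are used. In the mouse embryo, transcription of the new genome starts in earnest at the late 2-cell stage, when the first embryonic transcripts have to be spliced.

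Levels are TPM (transcript abundance per gene length, summing to the same constant in each library). The top 10 genes of a library took 48.9 to 73.8% of the stem cell libraries and 57.4 to 72.6% of the embryo libraries. Where they take more, less is left for all other genes together. Each comparison is therefore given on 2 scales: on TPM as deposited, and on TPM divided by a median-ratio factor that puts the middle gene of the libraries at the same height, called scaled values below. A difference was called where limma's adjusted p was under 0.05 and the log2 fold change reached 1 in either direction. Counts at an unadjusted p under 0.05 in limma, without a fold threshold, are also given. The share of all genes at that looser threshold was not counted, so those counts cannot be set beside the shares of genes called. Of the 48 genes, 47 passed the filter on low values in each table, and Srsf12 did not. The libraries matched their labels in outline: 6 stem cell markers (Pou5f1, Sox2, Nanog, Esrrb, Klf4, Tdgf1) summed to between 314 and 1214 TPM in the stem cell libraries, and 7 oocyte markers to between 462 and 861 TPM in embryos against at most 11.5 TPM in stem cells. Whether fewer cells or less RNA per cell lies behind a lower value cannot be told apart in bulk samples.

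The sequence before 2 U1 snRNP genes is shown first, because Snrpc was the 1 member called with Obox3 and with Obox5 on scaled values and Snrpa is the other U1 gene of the family. Snrpc encodes U1-C, which helps U1 to pair with the start of the intron, and Snrpa encodes U1-A, which binds a loop of the U1 RNA. Snrpc lies on chromosome 17 from 27840028 to 27851968 and Snrpa on chromosome 7 from 27187006 to 27196271. The stretches below come from RefSeq promoters on GRCm38.p6 and stop before the first annotated base of each gene. Capitals mark TAATCC or its complement GGATTA, the word recognised by homeodomains of the OTX and CRX type; both strands were searched.
Snrpc, chr17:27839837-27840027, plus strand: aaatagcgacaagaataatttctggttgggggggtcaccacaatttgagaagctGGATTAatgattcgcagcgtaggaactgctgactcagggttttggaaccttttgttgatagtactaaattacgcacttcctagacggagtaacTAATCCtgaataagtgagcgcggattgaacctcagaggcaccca
Snrpa, chr7:27196272-27196521, minus strand: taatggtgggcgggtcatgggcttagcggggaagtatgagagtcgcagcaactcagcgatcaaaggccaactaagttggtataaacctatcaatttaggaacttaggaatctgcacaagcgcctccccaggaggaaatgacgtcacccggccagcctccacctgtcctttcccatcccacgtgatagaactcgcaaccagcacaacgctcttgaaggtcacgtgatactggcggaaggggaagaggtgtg
In the Snrpc promoter the word begins 196 and 103 bases before the start of the listed transcript. In the table of 32851 promoters of 300 bases, 7.062% held TAATCC at least once and 0.359% at 2 or more places. Of the 40 members with a promoter entry, 4 held it at least once (Prpf8, Sf3b2, Snrpc and Srsf11), 10% against 8.137% of all 27025 genes in that table. Snrpc was the 1 member with 2 or more, 2.5% of the 40 against 0.429% of all genes. Snrpa held none. The letters are a description of the sequence and show no binding. A further 4 words were searched on both strands. CCGGAAG, which ETS-family factors bind, stood in the promoters of 18 of the 40 member genes, 45% against 9.928% of all genes. The E-box CACGTG stood in 10% against 8.093%, the YY1 word CCATNTT in 20% against 18.19%, and TATAAA in 10% against 15.67%.

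Snrpc was higher in the Obox3 and Obox5 cells than in the control. It stood at 19.5 and 15.5 TPM in ES_Empty, 32.4 and 25.02 in ES_Obox3, 32.9 and 36.8 in ES_Obox5, 15.4 and 12.8 in ES_Obox6, and 11.5 and 11.3 in ES_Dux. All 4 Obox3 and Obox5 libraries lay above both control libraries, and the 9 single libraries, from 14.5 (Obox7) to 20.3 TPM (Crxos2), lay below those 4. On scaled values the log2 fold change was 1.28 (SE 0.14, adjusted p = 0.000685) for Obox3 and 1.25 (SE 0.14, adjusted p = 0.00113) for Obox5, and Snrpc was called in both. On TPM as deposited the log2 fold changes were 0.68 (SE 0.20, adjusted p = 0.033) and 0.96 (SE 0.20, adjusted p = 0.0153), short of the fold threshold. With each library of the pair of groups left out in turn, Snrpc was called on scaled values in 4 of 4 fits for Obox3 (log2 fold change 1.19 to 1.40) and in 4 of 4 for Obox5 (1.08 to 1.42). For Obox6 the scaled log2 fold change was -0.13 (SE 0.14, adjusted p = 0.666). For Dux it was 0.80 (SE 0.14, adjusted p = 0.00769), under the fold threshold, and -0.57 as deposited. Compared directly with Obox3 cells, Dux cells had less Snrpc, called lower as deposited at a log2 difference of -1.24 (SE 0.20, adjusted p = 0.00181) and under the fold threshold on scaled values at -0.49 (SE 0.14, adjusted p = 0.0314).

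A ratio of 2 genes within a library does not depend on the scale, and the pair Snrpc and Snrpa was chosen for this after their values were seen. Snrpc over Snrpa was 0.345 and 0.388 in ES_Empty, 1.06 and 1.03 in ES_Obox3, 1.03 and 0.996 in ES_Obox5, 0.413 and 0.430 in ES_Obox6, and 0.515 and 0.489 in ES_Dux. The single libraries ranged from 0.301 (Obox7) to 0.452 (Crxos2). In embryos the ratio was 1.52 and 1.18 in ICSI_L2C, 0.791 and 0.717 in SCNT_EGFP_L2C, and 0.956 and 1.14 in SCNT_Obox3_L2C. The Obox3 and Obox5 cells thus had about equal TPM of the 2 genes, while every other stem cell library had a ratio of at most 0.515.

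**Figure D1:**
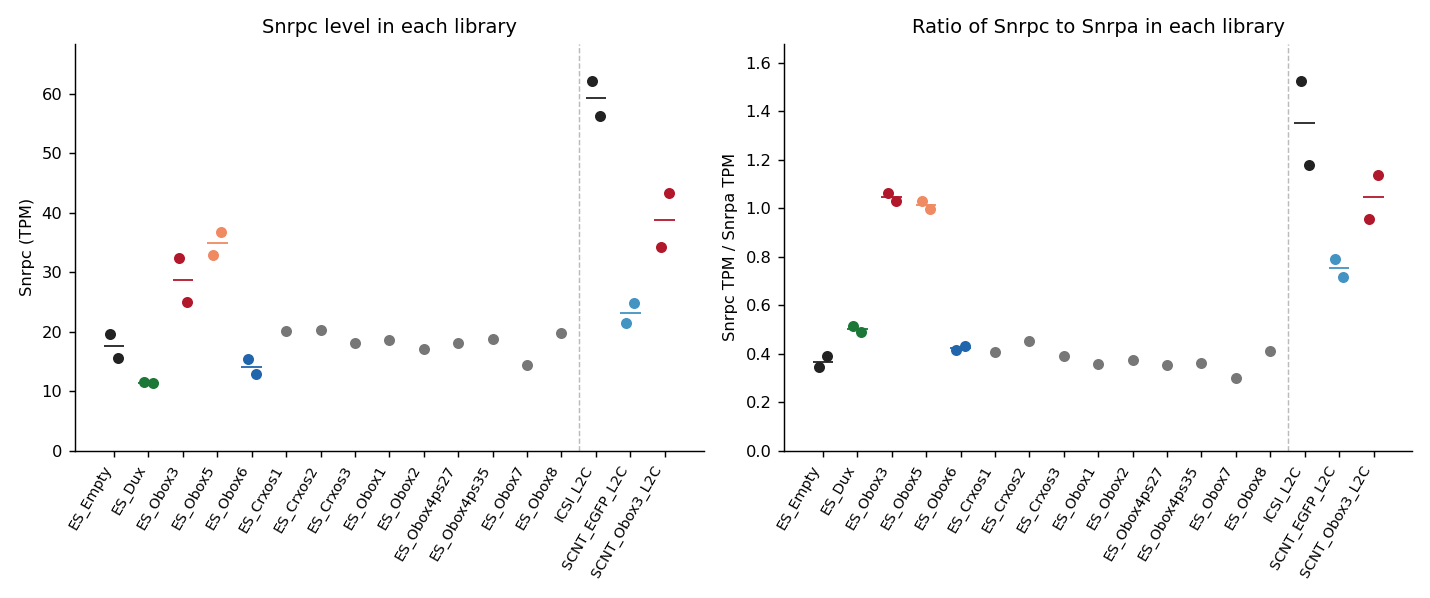
Left, Snrpc level in TPM, and right, Snrpc TPM divided by Snrpa TPM, for each of the 25 libraries (points; bars are means of 2 libraries; the dashed line separates the stem cell from the embryo table). The ES_Obox3 and ES_Obox5 points stand apart from all other stem cell libraries, with ratios from 0.996 to 1.06 against at most 0.515.

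Across the whole family, few genes were called with Obox3 or Obox5, where a call needs the fold threshold. With Obox3, 0 members were called higher and 1 lower as deposited (all genes 4.67% and 13.6%), and 1 higher and 0 lower on scaled values (all genes 7.8% and 3.77%). In limma at an unadjusted p under 0.05, 1 member was higher and 28 lower as deposited, and 14 were higher and 3 lower on scaled values. At an adjusted p under 0.05 in limma without a fold threshold, Obox3 had 1 higher and 15 lower as deposited, and 9 and 1 scaled. Obox5 had 1 and 1 as deposited, and 5 and 0 scaled. No share of all genes was counted at that threshold. With Obox3 the members' median log2 fold change was -0.55 as deposited and 0.07 scaled, beside -0.42 and 0.00 for all genes tested. Without the unnumbered ES_Obox3 library the median as deposited was -0.28. With Obox5, 0 were called in either direction as deposited (all genes 4.79% higher and 5.47% lower; 1 member higher and 7 lower at an unadjusted p under 0.05), and Snrpc alone was called higher on scaled values, with 0 lower (all genes 6.13% and 2.41%; 8 and 5 at an unadjusted p under 0.05). The 2 comparisons share the ES_Empty libraries. The 6 stem cell markers summed to 1052 and 890 TPM in ES_Empty, 489 and 352 in ES_Obox3 and 479 and 465 in ES_Obox5, and 6 late 2-cell markers that are not Obox genes to at most 1.91 TPM in ES_Empty and 75.1 to 111 TPM in those 4 libraries; the part of these shifts in the splicing genes was not tested.

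Sf3b1, the largest protein of the U2 subcomplex that holds the branch point, came next to Snrpc in both. It stood at 38.6 and 33.8 TPM in ES_Empty, 45.6 and 30.0 in ES_Obox3 and 50.2 and 43.9 in ES_Obox5, and the Obox3 and control libraries overlapped. Its scaled log2 fold change was 0.66 (SE 0.09, adjusted p = 0.00183) with Obox3 and 0.67 (SE 0.09, adjusted p = 0.00229) with Obox5, under the fold threshold. At the other end with Obox3 were Prpf19, a ubiquitin ligase that stabilises the active spliceosome, and Prpf4, a U4/U6 protein. Prpf19 stood at 36.8 and 31.6 TPM in ES_Empty and 17.9 and 13.6 in ES_Obox3. It was called lower as deposited (log2 fold change -1.08, adjusted p = 0.00468) and not on scaled values (-0.46, adjusted p = 0.043). The count of members called lower as deposited was 9 without ES_Obox3 replicate 1, 6 without ES_Empty replicate 2, and 0 without ES_Empty replicate 1 or the unnumbered ES_Obox3 library. Prpf4 went from 12.7 and 11.3 to 7.19 and 4.71 TPM, with -0.93 (adjusted p = 0.0151) as deposited and -0.35 (adjusted p = 0.0772) scaled. With Obox5 the lowest were Prpf40b, thought to bridge U1 and U2 (scaled -0.45, adjusted p = 0.0667), and the SR protein Srsf4 (scaled -0.42, adjusted p = 0.143). The ES_Obox3 replicate 1 library was above the unnumbered ES_Obox3 library in 47 of 48 members, by a median of 0.49 on the log2 scale beside 0.47 for all genes, and ES_Empty replicate 1 was above replicate 2 in 46 of 48.

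In Dux cells the TPM of nearly the whole family was lower, and among the 7 Sm ring genes 1 was called lower, against all 13 PRP factors. As deposited, 34 of 47 members were called lower and 0 higher, beside 44.4% and 4.12% of all genes. All 47 had both Dux libraries below both controls, but the share of all genes that did so was not counted. On scaled values 0 were called in either direction, beside 6.99% of all genes higher and 2.15% lower, while at an unadjusted p under 0.05 in limma 17 members were higher and 4 lower. The median over all genes was -0.97 as deposited, so the direction depends on the scale: the members' median was -1.18 as deposited and 0.16 scaled. The family took 8542 and 7982 TPM when protein-coding genes alone were made to sum to 1e+06, in ES_Empty and 6638 and 7234 in ES_Dux. Stem cell markers summed to 314 and 335 TPM in ES_Dux and the 6 late 2-cell markers to 1911 and 2127 TPM, and their part in these values was not tested.

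The 7 Sm genes (Snrpb, Snrpd1, Snrpd2, Snrpd3, Snrpe, Snrpf, Snrpg) had scaled log2 fold changes from 0.31 to 0.98 with a median of 0.61, where the 13 PRP factors had a median of -0.14 and the 10 SR proteins tested a median of -0.21. Snrpd2 stood highest. It was listed at 25.9 and 21.1 TPM in ES_Empty and 17.6 and 17.2 in ES_Dux, at a log2 fold change of -0.40 (adjusted p = 0.12) as deposited and 0.98 (SE 0.12, adjusted p = 0.00141) scaled, just under the fold threshold. Without ES_Empty replicate 1, or without the unnumbered ES_Dux library, 1 member was called higher on scaled values. As a share of the summed TPM of the 48 members, which is free of the scale, the Sm genes took 22.5 and 22.1% in ES_Dux, 17.7 and 15.8% in ES_Empty, and between 14.9 and 17.5% in the other 15 stem cell libraries. The Dux libraries lay above every other stem cell library in this share; it is a description, with no test. Lowest with Dux were Prpf38b, a partner of the tri-snRNP, at 29.5 and 23.3 TPM in ES_Empty against 5.93 and 5.41 (log2 fold change -2.03, adjusted p = 0.000282 as deposited; -0.71, adjusted p = 0.0119 scaled), and the SR protein Srsf2, at 97.4 and 84.3 against 24.4 and 24.8 TPM (-1.84, adjusted p = 0.000437; scaled -0.42, adjusted p = 0.0254).

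**Figure D2:**
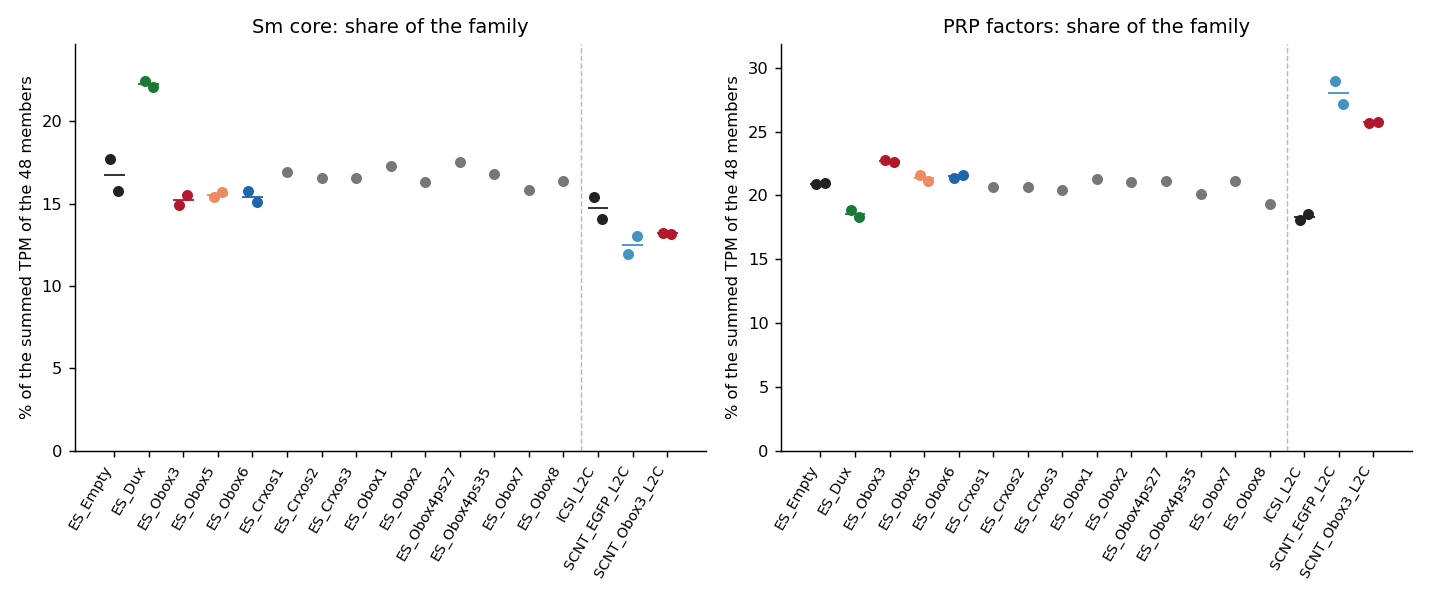
Share of the summed TPM of the 48 members held by the 7 Sm core genes (left) and the 13 PRP factors (right), in percent, in each library (points; bars are means of 2 libraries; the dashed line separates the tables). The 2 ES_Dux libraries are highest for the Sm core at 22.1 and 22.5%, and the 4 clone libraries are highest for the PRP factors.

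Set directly against Obox3, Dux gave 11 members called lower and 0 higher as deposited (all genes 20.3% and 3.42%) and 0 in either direction scaled (all genes 8.33% higher and 9.25% lower; 12 members higher and 12 lower at an unadjusted p under 0.05). As deposited the lowest were Srsf1, an SR protein that promotes exon inclusion, at -1.49 (adjusted p = 0.00402), and Prpf8, the U5 protein at the heart of the active site, at -1.34 (adjusted p = 0.00154). Their scaled log2 differences were -0.71 (adjusted p = 0.00804) and -0.54 (adjusted p = 0.0058), and on that scale Prpf18, which acts at the last step of splicing, was next to Srsf1 at -0.65 (adjusted p = 0.00458). The highest on both scales were the Sm genes Snrpd2 and Snrpe, at a scaled 0.88 (adjusted p = 0.00113) and 0.84 (adjusted p = 0.00383). None of these passed the fold threshold on scaled values.

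Obox6 gave no called member on either scale, with 0 higher and 0 lower beside 2.39% and 1.99% of all genes as deposited and 2.81% and 1.32% scaled. At an unadjusted p under 0.05 in limma, 0 members were higher and 8 lower as deposited, and 2 higher and 8 lower scaled. The members nonetheless lay mostly on 1 side: 4 of 47 were above the median of all genes on either scale, and their median was -0.39 as deposited and -0.23 scaled, beside -0.09 and 0.00 for all genes. Replicates of 1 group were as one-sided. As deposited, replicate 1 was above replicate 2 in 45 of 48 members in ES_Obox6 (median log2 difference 0.22, all genes 0.13). In ES_Empty it was above in 46 of 48 (0.28, all genes 0.15). Members of a library can thus move together and are not separate observations. The members' median against ES_Empty depended on single libraries: it was -0.20 as deposited and -0.12 scaled without ES_Empty replicate 1, and -0.23 and -0.14 without ES_Obox6 replicate 2. In ES_Obox6 the stem cell markers summed to 633 and 526 TPM, the 6 late 2-cell markers to 77.5 and 67.9, and 6 trophoblast markers to 94.5 and 67.1 against 19.5 and 15.2 in ES_Empty; their part in these values was not tested. Srsf2 was lowest on scaled values, with 67.4 and 52.4 TPM in ES_Obox6 against 97.4 and 84.3 in ES_Empty (scaled log2 fold change -0.43, SE 0.10, adjusted p = 0.0435). Snrpa1, which encodes U2-A′, a protein that binds U2 RNA together with U2-B″, followed at -0.41 (adjusted p = 0.201). Prpf4b, a kinase of the PRP group, and the SR protein Srsf5 were at the top, at 0.30 (adjusted p = 0.111) and 0.26 (adjusted p = 0.104).

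The 9 single libraries were not tested. In them no member differed from the ES_Empty mean by 2-fold on either scale. For comparison, the share of all genes past 2-fold on scaled values was 4.07% with Crxos1, 4.63% with Crxos2, 6.11% with Crxos3, 4.87% with Obox1, 4.39% with Obox2, 4.91% with Obox4ps27, 5.55% with Obox4ps35, 6.02% with Obox7 and 6.8% with Obox8. The farthest scaled member value was Snrpb2, a U2 protein, at -0.69 with Obox4ps35. Snrpc ranged from -0.36 with Obox7 to 0.24 with Crxos2 on the same scale.

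Embryos used the family in other proportions than stem cells. In ES_Empty the most abundant members by mean TPM were Prpf8 (144), the Sm protein Snrpb (105), the SR proteins Srsf7 (97.2) and Srsf2 (90.8), and the U2 protein Sf3b2 (82.4). In ICSI_L2C the 4 highest were the SR proteins Srsf5 (132) and Srsf1 (117), Sf3b1 (73.1), and Snrpd1 (69.0) of the Sm ring. Prpf8 was rank 1 of 48 in ES_Empty and rank 28 in ICSI_L2C, while Snrpc was rank 38 and moved 31 places up. Spearman's rho between the 2 sets of means was 0.449 over 48 genes, as a description; the tables were normalised separately, so levels were not tested across them.

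**Figure D3:**
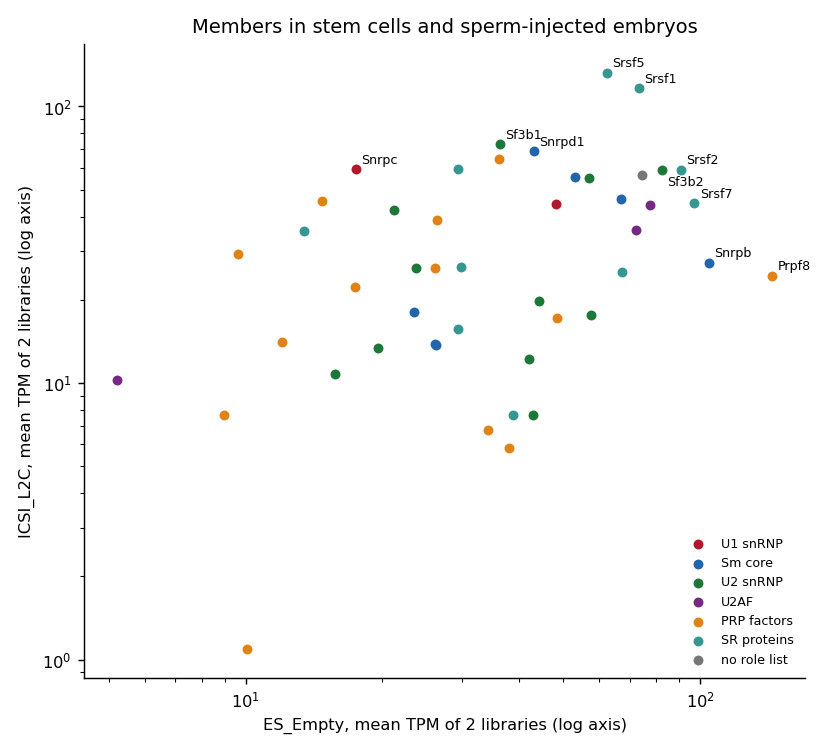
Mean TPM of each member in ICSI_L2C (vertical, log axis) against ES_Empty (horizontal, log axis), 2 libraries each, coloured by role; Srsf12, under 1 TPM in both, is left out. Srsf5 and Srsf1 are highest in embryos at 132 and 117 TPM, and Prpf8, at 144 TPM in stem cells, is at 24.4 TPM in embryos.

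Clones injected with EGFP mRNA had less of many splicing genes than sperm-injected embryos. As deposited, 15 of 47 members were called lower and 0 higher, beside 12.5% and 4.8% of all genes, with 30 lower and 1 higher at an unadjusted p under 0.05 in limma. On scaled values 12 were lower and 1 higher, beside 8.84% and 6.15% of all genes. The 12 were lower on both scales. With TPM summed over protein-coding genes alone, 6 were lower and 2 higher. The share of all genes called on that scale is not given here, so these 2 counts cannot be set beside it. The members' median log2 fold change was -0.81 as deposited and -0.61 scaled, against -0.20 and -0.03 for all genes tested. On the same protein-coding scale the family took 5854 and 5848 in ICSI_L2C, 4181 and 4553 in SCNT_EGFP_L2C and 5303 and 5103 in SCNT_Obox3_L2C. The 6 late 2-cell markers summed to 645 and 461 TPM in ICSI_L2C, 143 and 207 in SCNT_EGFP_L2C and 242 and 329 in SCNT_Obox3_L2C, and 10 cumulus and granulosa markers to 25.9 and 30.1, 10.4 and 15.9, and 19.9 and 21.6 TPM. In the same order of groups, 7 oocyte markers summed to 861 and 762.1, 515 and 598, and 462 and 481 TPM, and the trophoblast markers to 46.3 and 55.8, 15.3 and 10.3, and 15.3 and 14.1 TPM. The part of these shifts in the splicing genes was not tested. The donor nuclei, the embryo strain label and the injection differ together between clones and ICSI_L2C and cannot be told apart.

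Of the 11 U2 snRNP genes, 4 were lower on both scales. Snrpa1 had the lowest scaled value, at 41.6 and 42.9 TPM in ICSI_L2C against 6.25 and 7.60 in SCNT_EGFP_L2C, with log2 fold changes of -2.45 (SE 0.17, adjusted p = 0.00147) as deposited and -2.25 (SE 0.15, adjusted p = 0.00221) scaled. Its ratio to Snrpb2, the gene of U2-B″, was 3.56 and 2.84 in ICSI_L2C, 0.740 and 0.510 in SCNT_EGFP_L2C and 1.12 and 0.960 in SCNT_Obox3_L2C, so the clone libraries lay below both ICSI libraries on a measure free of the scale (a pair chosen after the values were seen). Sf3a1, the scaffold of the SF3A complex that joins U2, stood at 55.2 and 54.6 against 13.0 and 16.6 TPM (scaled -1.62, SE 0.14, adjusted p = 0.00315). Sf3b4, an RNA-binding subunit beside the branch point, stood at 20.7 and 18.9 against 5.84 and 5.86 TPM (scaled -1.40, SE 0.20, adjusted p = 0.00815). Sf3b1 was the other, at a scaled -1.17 (adjusted p = 0.00694). Sf3b2 and Sf3b6 were called lower as deposited only.

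Members of the other roles were called as well. Snrpe of the Sm ring stood at 47.9 and 45.01 TPM in ICSI_L2C against 10.5 and 15.9 in SCNT_EGFP_L2C (scaled -1.56, SE 0.19, adjusted p = 0.00505), and Snrpert, its named relative, at 46.6 and 66.6 against 6.31 and 15.2 (scaled -2.17, SE 0.34, adjusted p = 0.01). Snrpd1 was the other Sm gene called, at a scaled -1.23. Srsf1 stood at 112 and 121 against 31.2 and 50.03 TPM (scaled -1.32, SE 0.20, adjusted p = 0.00924), and the SR proteins Srsf6 and Srsf5 followed at -1.19 and -1.12. Snrpc, at 62.1 and 56.2 against 21.5 and 24.8 TPM, was called at a scaled -1.10 (adjusted p = 0.00815), and U2af1, the U2AF subunit that reads the AG at the intron end, at -1.01. No PRP factor was lower on both scales; Prpf38a was called lower as deposited only. For each of the 12 the ICSI and EGFP libraries did not overlap, which is nearly fixed by calling them in these same libraries.

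Prpf8 went the other way. It stood at 22.1 and 26.7 TPM in ICSI_L2C, 44.7 and 44.6 in SCNT_EGFP_L2C and 54.4 and 59.7 in SCNT_Obox3_L2C, with no overlap between the fertilised and cloned libraries. For EGFP clones the log2 fold change was 0.85 (SE 0.17, adjusted p = 0.0157) as deposited, under the fold threshold, and 1.06 (SE 0.12, adjusted p = 0.00485) scaled, which was called; it was no longer called without SCNT_EGFP_L2C replicate 1, at a scaled 0.98. For Obox3 clones against ICSI_L2C it was called on both scales, at 1.20 (SE 0.17, adjusted p = 0.012) and 1.44 (SE 0.12, adjusted p = 0.00729), but not on scaled values without SCNT_Obox3_L2C replicate 2 (adjusted p = 0.0513), nor as deposited without ICSI_L2C replicate 1 or either SCNT_Obox3_L2C library. Prpf8 alone took 1.40 and 1.54% of the family's TPM in ICSI_L2C, 5.82 and 4.61% in SCNT_EGFP_L2C and 4.83 and 5.21% in SCNT_Obox3_L2C. The 13 PRP factors together took 18.1 and 18.6%, 29.0 and 27.1%, and 25.7 and 25.8%. Prpf40b was the next highest in EGFP clones, at 1.10 and 1.08 against 2.15 and 2.15 TPM (scaled 0.72, adjusted p = 0.0956), close to the filter on low values.

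**Figure D4:**
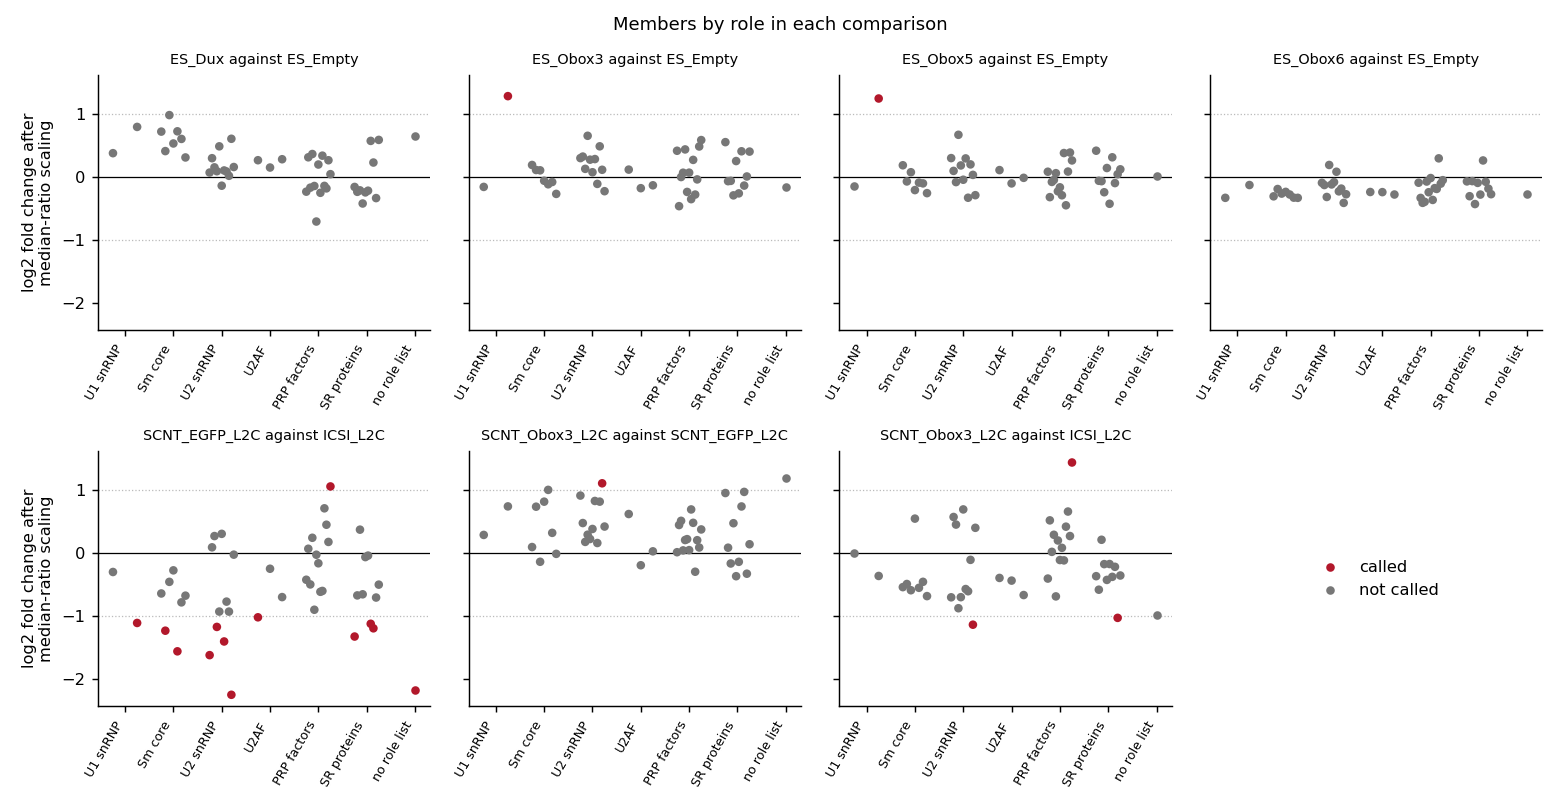
Scaled log2 fold change of each of the 47 members tested (points, grouped by role; red, called) in 7 comparisons; dotted lines mark the fold threshold of 1. Snrpc is the 1 red point in the ES_Obox3 and ES_Obox5 panels, 12 points are red below and 1 above 0 for EGFP clones, and in ES_Dux all 7 Sm genes lie above 0.

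Obox3 mRNA in clones gave values mostly above those of EGFP clones, with little that passed the test. As deposited 0 members were called in either direction (all genes 0.11% higher and 0.0438% lower), although at an unadjusted p under 0.05 in limma 16 were higher and 0 lower. On scaled values Snrpa1 was called higher and 0 members lower, beside 1.41% and 0.175% of all genes called. At the looser unadjusted p under 0.05 in limma, 20 members were higher and 0 lower, with no share of all genes counted. Snrpa1 stood at 6.25 and 7.60 TPM with EGFP and 16.4 and 14.9 with Obox3, with log2 fold changes of 1.07 (SE 0.17, adjusted p = 0.0804) as deposited and 1.11 (SE 0.15, adjusted p = 0.0377) scaled; with any 1 embryo library left out it was no longer called. Of the 47 members, 39 lay above the median of all genes on each scale, and the members' median was 0.26 as deposited and 0.30 scaled, beside -0.03 and -0.01 for all genes. The 2 EGFP libraries differed from each other by about as much. As deposited, SCNT_EGFP_L2C replicate 1 was above replicate 2 in 7 of 48 members. The median log2 difference between them was -0.27, beside -0.15 for all genes. Members of a library can move together, so the 39 are not separate observations. The median as deposited was 0.17 without SCNT_EGFP_L2C replicate 1 and 0.44 without replicate 2. Snrpert had the largest fold change of the members on both scales but was not called, at a scaled 1.19 (SE 0.34, adjusted p = 0.122), with 6.31 and 15.2 TPM against 23.5 and 22.9. The lowest were the SR proteins Srsf3 (scaled -0.36, adjusted p = 0.402) and Srsf7 (-0.32, adjusted p = 0.293). Snrpc stood at 21.5 and 24.8 against 34.1 and 43.2 TPM (scaled 0.75, adjusted p = 0.0697), not called, with no overlap between the groups.

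Obox3 clones were then set against ICSI_L2C. As deposited 1 member was called higher and 3 lower (all genes 2.8% and 6.31%), and scaled 1 higher and 2 lower (all genes 4.08% and 3.85%). Prpf8 was the higher one. Snrpa1 was lower on both scales, at a scaled -1.13 (SE 0.15, adjusted p = 0.0115), as was Srsf7, at 41.8 and 47.4 TPM in ICSI_L2C against 15.4 and 20.8 (scaled -1.02, SE 0.15, adjusted p = 0.0162). Sf3b1 was called lower as deposited only. Without any 1 of the 4 ICSI_L2C or SCNT_Obox3_L2C libraries, the lower calls fell to 1 as deposited, and scaled to 0 (without ICSI_L2C replicate 1 or SCNT_Obox3_L2C replicate 2) or 1. Sf3b3, a scaffold of the SF3B complex, was the second highest at a scaled 0.70 (adjusted p = 0.0567). All 12 members that were lower in EGFP clones on both scales had an Obox3 mean between the EGFP and ICSI means, as did 29 of all 48 members as deposited and 28 scaled. These comparisons share the EGFP and ICSI libraries, and the between position was not tested. The 12 were picked for low EGFP and high ICSI values in these same libraries, which by itself favours a between position. How many of all genes called lower in EGFP clones lie between was not counted.

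**Figure D5:**
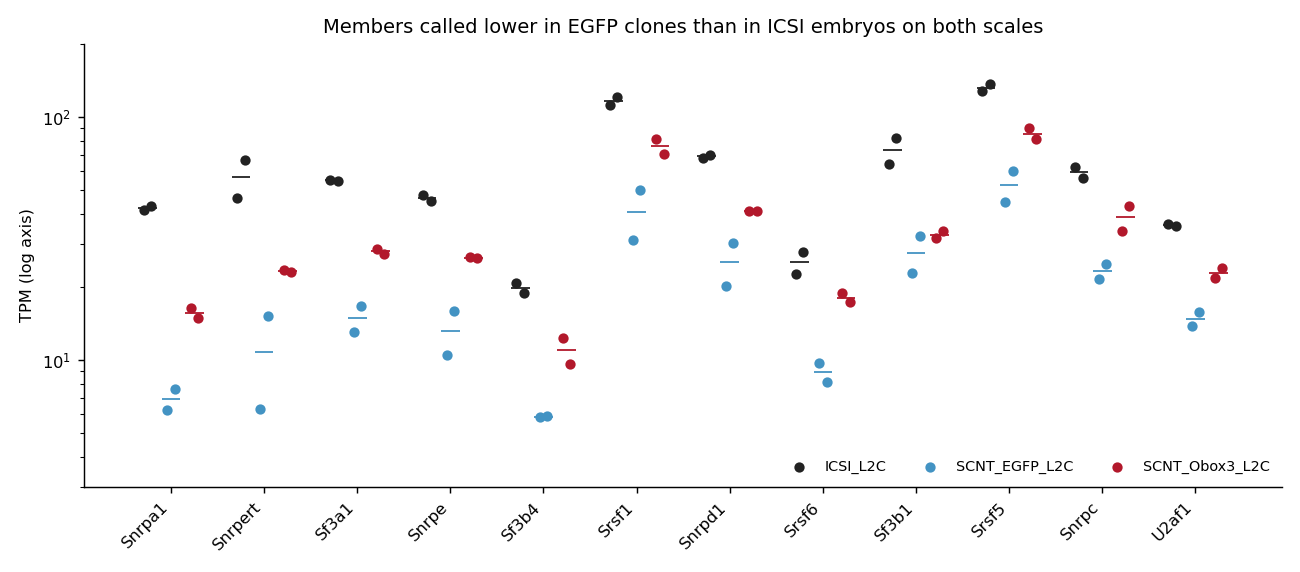
TPM (log axis) of the 12 members called lower in SCNT_EGFP_L2C than in ICSI_L2C on both scales, in the 2 libraries of each embryo group (points; bars are means). In each gene the blue EGFP bar is lowest, the red Obox3 bar lies between, and the black ICSI bar is highest. Picking the genes for low EGFP and high ICSI values in these libraries favours this order, which was not tested. Snrpa1 runs from 6.25 to 42.9 TPM.

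A list of 126 further spliceosome genes was read the same way, of which 121 were tested in stem cells and 120 in embryos. With Obox3, 1 was called higher and 6 lower as deposited (all genes 4.67% and 13.6%), and 6 higher and 0 lower scaled (7.8% and 3.77%). With Obox5 the counts were 2 and 1 (4.79% and 5.47%), then 5 and 0 (6.13% and 2.41%). With Obox6 they were 0 and 1 (2.39% and 1.99%), then 1 and 0 (2.81% and 1.32%). At an unadjusted p under 0.05 in limma, scaled values had 47 higher and 10 lower with Obox3, 30 and 7 with Obox5, 13 and 22 with Obox6 (3 and 13 as deposited), and 42 and 21 with Dux (2 and 106 as deposited). Cwc22, which loads the exon junction complex onto the spliceosome, was called higher on both scales with Obox3 and with Obox5. It stood at 13.0 and 12.4 TPM in ES_Empty, 109 and 67.2 in ES_Obox3, and 105 and 93.9 in ES_Obox5, and the scaled log2 fold changes were 3.26 and 3.14. Cwc22 was also above both controls in the other 2 replicated groups, at 23.6 and 27.4 TPM in ES_Dux and 25.6 and 20.5 in ES_Obox6. Snrnp35, a protein of the minor U11/U12 snRNP, was called on both scales with Obox5, at 3.59 and 3.73 TPM in ES_Empty against 8.85 and 11.3. With Dux, 0 were higher and 86 lower as deposited (4.12% and 44.4%), and 10 higher and 0 lower scaled (6.99% and 2.15%); 6 of those 10 were spliceosomal small RNAs, short genes with near-identical copies whose levels are uncertain. Dux against Obox3 gave 1 higher and 36 lower (3.42% and 20.3%), then 8 and 8 (8.33% and 9.25%).

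In EGFP clones against ICSI_L2C, 3 of the 120 were called higher and 34 lower as deposited (all genes 4.8% and 12.5%), and 5 higher and 23 lower scaled (6.15% and 8.84%). By list the scaled lower calls were 8 of 25 for the catalytic core and helicases, 3 of 8 for the exon junction complex, 3 of 9 for the minor spliceosome, 3 of 17 for SR kinases and SR-related proteins, 4 of 24 for other snRNP and LSm proteins (with 3 higher), 2 of 28 for hnRNPs and splicing regulators (with 1 higher) and 0 of 9 for spliceosomal small RNAs (with 1 higher). Snrnp35 stood at 85.1 and 82.7 TPM in ICSI_L2C, 9.92 and 19.6 in SCNT_EGFP_L2C and 48.8 and 33.6 in SCNT_Obox3_L2C, a scaled log2 fold change of -2.29 between the first and second. Obox3 clones against EGFP clones gave 0 called as deposited (all genes 0.11% higher and 0.0438% lower) and 4 higher and 0 lower scaled (1.41% and 0.175%), with 33 higher and 6 lower, then 47 and 5, at an unadjusted p under 0.05 in limma. Against ICSI_L2C they gave 1 higher and 12 lower (2.8% and 6.31%), then 5 and 5 (4.08% and 3.85%).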

How the data were processed

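The authors deposited 1 stem cell and 1 embryo table of TPM with 55364 genes each, the unit being given per the file headers. In the submitters' processing notes stand HISAT2, Trim Galore, featureCounts 1.6.5 and mm10, without the step that each served; the gene annotation is not given in the sources used here. TPM keep no sequencing depth, so no interval from read counts was made. The table of gene names held 54312 of the identifiers.

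Tests used limma 3.58.1 (R 4.3.3, statmod 1.5.0) on the log2 of TPM plus 1, a trended prior variance with robust fitting, and Benjamini-Hochberg adjustment over all genes tested. Genes under 1 TPM in all but 1 library were left out, which kept 20355 in stem cells (10 libraries, 5 residual degrees of freedom) and 18252 in embryos (6 libraries, 3). The added 1 shrinks the fold changes of low genes. The fit was also run on simulated TPM with known changes. Its outcome is not given here and it used no median-ratio scaling, so it lends no weight to the calls. Median-ratio factors used 17525 genes in stem cells and 19703 in embryos, and 16503 where single libraries were included. Sample names in the headers gave each column its sample. For ES_Dux, ES_Obox3 and ES_Obox5, 1 column each has a replicate number that the labels lack, and was used as an unnumbered library of its group. No replicates held identical values.

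Alternatives were a pseudocount of 0.1, no filter, TPM over protein-coding genes, fits of 2 groups, a replicate block and leaving out each library; those joining scaling with another choice were chosen after seeing the data. Named members were those called on both scales (at most 6 a comparison), the 2 highest and 2 lowest relative to all genes, and the 5 most abundant in ES_Empty and ICSI_L2C, of which 1 is not reported here. Other named genes, the gene pairs and the printed promoters were chosen after their values were seen. Members, lists and marker sets were chosen with earlier results of these data known. Fibroblast and trophoblast markers summed to at most 6.34 and 94.5 TPM in any library. Protein sequences were not used here.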

Additional observations from a re-analysis of the deposited data

Results flagged for a closer look

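Only the members named for the 2 comparisons of Obox3 with its control were searched here. On scaled values, 3 of them had an Obox3 effect of opposite sign in the stem cells and in the clones. Both Obox3 libraries lay on the same side of both controls in each setting, and the difference itself was not tested. Prpf19 had a log2 fold change of -0.46 in ES_Obox3 against ES_Empty and 0.45 in SCNT_Obox3_L2C against SCNT_EGFP_L2C. Prpf4 had -0.35 and 0.70, and Srsf3 had 0.25 and -0.36. None of the 6 values was called, and with 47 members and 2 libraries a group such splits can arise by chance. Members outside the search met the same description, among them Srsf2 and Srsf6. Scaled TPM of Srsf6 was 46.0 and 48.3 in ES_Empty and 39.9 and 45.9 in ES_Obox3. In the clones it was 10.7 and 8.04 with EGFP and 20.7 and 17.9 with Obox3.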

How the results depend on the processing

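Counts of called members changed with the scale and with single libraries. Shares of all genes are given above for TPM as deposited and for scaled values with all libraries only. Counts under any other setting, or with a library left out, have no such share beside them. With median-ratio scaling, members called lower were 0 for ES_Dux and 0 for ES_Obox3 against ES_Empty and 0 for ES_Dux against ES_Obox3, and members called higher were 1 each for ES_Obox3 and ES_Obox5 against ES_Empty, SCNT_EGFP_L2C against ICSI_L2C and SCNT_Obox3_L2C against SCNT_EGFP_L2C. With TPM over protein-coding genes, ES_Dux had 1 lower, ES_Obox3 1 higher and 0 lower, ES_Obox5 1 higher, ES_Dux against ES_Obox3 2 lower, SCNT_EGFP_L2C 2 higher and 6 lower against ICSI_L2C, and SCNT_Obox3_L2C 1 lower against ICSI_L2C. A pseudocount of 0.1 gave 2 lower for ES_Obox3. In ES_Dux, Snrpc turned to log2 fold changes of 0.80 and 0.34 and Snrpd2 to 0.98 and 0.52, for scaling and protein-coding TPM in that order. The cause was not tested.

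Leaving out 1 library at a time gave these lowest and highest counts as deposited: ES_Obox3 lower 0 to 9 (9 without ES_Obox3 replicate 1, 6 without ES_Empty replicate 2, 0 without ES_Empty replicate 1 or the unnumbered ES_Obox3 library), ES_Obox5 higher 0 to 1, ES_Dux against ES_Obox3 lower 6 to 21 (6 without ES_Obox3 replicate 1, 21 without the unnumbered ES_Obox3 library), and SCNT_Obox3_L2C against ICSI_L2C higher 0 to 1 and lower 1 to 4. On scaled values they were higher 0 to 1 for ES_Dux against ES_Empty and against ES_Obox3, higher 0 to 1 for SCNT_EGFP_L2C against ICSI_L2C, higher 0 to 0 for SCNT_Obox3_L2C against SCNT_EGFP_L2C, and higher 0 to 1 and lower 0 to 2 for SCNT_Obox3_L2C against ICSI_L2C. A lone library left in a group is assumed to vary like the other groups. As deposited, log2 fold changes that crossed 0 ranged from -0.26 to 0.33 for Sf3b1 with Obox3 (-0.06 without ES_Empty replicate 2), from -0.0079 to 0.20 for Srsf5 and -0.0047 to 0.28 for Prpf4b with Obox6, and from -0.27 to 0.36 for Snrpe (-0.06 without the unnumbered ES_Dux library) and -0.16 to 0.35 for Snrpd2 in ES_Dux against ES_Obox3.

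Over all genes tested, same-numbered libraries did not deviate together (correlations from -0.022 to 0.067), so the numbers were not taken to pair them. Of the 48 members, replicate 1 was above the other library in 46 in ES_Empty, 45 in ES_Obox6 and 47 in ES_Obox3. It was above in 31 in ES_Obox5 and 16 in ES_Dux. In embryos it was above in 15 in ICSI_L2C, 7 in SCNT_EGFP_L2C and 19 in SCNT_Obox3_L2C. A pairing of the members alone was not tested. With the replicate block, and also with a fit of only the 2 groups, the scaled count of members higher in SCNT_Obox3_L2C than in SCNT_EGFP_L2C was 0; the block gave 15 lower as deposited and 12 scaled for SCNT_EGFP_L2C against ICSI_L2C. No paired analysis was possible for ES_Dux, ES_Obox3 and ES_Obox5 because they share fewer than 2 numbers with ES_Empty.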
